A study of Mus musculus with 6 samples.

Results

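Cultures of mouse neural stem and progenitor cells were compared by RNA sequencing between 2 libraries labelled NAC and 2 labelled control, which are 4 of the 6 samples of the series and all of its samples in these groups. They were chosen by their titles alone, and every gene that could be tested between them was examined. The cells were grown in N2 medium with EGF and bFGF, growth factors that keep them dividing, and the labels place the treatment at 48 h. The other 2 libraries were given PQ for the same time. They serve here in filtering and scaling the genes, to estimate the spread and as values beside those of NAC. The labels spell out neither abbreviation, give no dose, and name no strain, age, sex or donor animals, and no vehicle for the controls. Per the series text, the treatments were meant to shift the redox potential inside the cells. The labels do not tell whether the libraries within a group stem from different cultures, and all p-values therefore rest on a spread between libraries that may be technical. Titles number the libraries 8 and 11 (control), 9 and 12 (PQ) and 10 and 13 (NAC), and the labels do not say what the numbers stand for.

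Neural stem cells line the germinal zones of the brain and, in culture with EGF and bFGF, divide and keep the capacity to form neurons, astrocytes and oligodendrocytes. They sit in a matrix of laminins, tenascin and chondroitin sulfate proteoglycans, carry an intermediate filament network of vimentin and nestin, and hold their neighbours in an undifferentiated state through Notch ligands. Thiol and selenium chemistry sets the redox state inside such cells: glutathione is made from cysteine, thioredoxin and selenium-dependent peroxidases use reducing equivalents to remove peroxides, and metallothioneins bind metals through cysteines.

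Summed expected counts were 9849392 to 10698241 in the control and NAC libraries. The label of neural progenitor cells was checked against markers. The stem cell filament gene Nes read 579 and 557 CPM in control and 471 and 466 CPM with NAC, the transcription factor Sox2 352 and 413 CPM in control and 302 and 314 CPM with NAC and the radial glia lipid binder Fabp7 554 and 604 CPM in control and 667 and 581 CPM with NAC, where CPM are counts scaled to library size. Of the 30 stem cell and radial glia markers listed, 28 had counts in a control or NAC library. The microglial genes C1qb, Trem2 and Tyrobp, the endothelial genes Cldn5 and Tie1, the neuronal gene Rbfox3 and the myelin genes Mog and Mag had no count in these 4 libraries. Most other members of their lists did have counts in a control or NAC library. These were 16 of 25 microglia and blood cell markers, 14 of 20 endothelial, 25 of 32 neurogenic and neuronal and 24 of 30 oligodendrocyte lineage markers. Cultures are mixtures and the RNA is bulk, so fewer cells of a type and less RNA per cell cannot be told apart in any value below. In log2 CPM the 2 control libraries correlated across genes with r = 0.992 and the 2 NAC libraries with r = 0.994, and genes are not independent replicates.

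With NAC about as many genes rose as fell under the main scaling. Selenop, Steap4, Lhfpl3, Pcdh15 and Cd14 rose, from 4.88-fold in Selenop to 7.17-fold in Cd14, and Map1b, Lipg, Adssl1, Ripor2 and Serinc2 fell, from 3.22-fold in Map1b to 8.17-fold in Serinc2. Among abundant transcripts Vim, Igfbp3 and Odc1 fell and Dag1, Clic5 and Ptprz1 rose. Of 12813 genes tested with edgeR's quasi-likelihood test, 2294 passed an adjusted p of 0.05, which is 17.9%. They were 1108 higher with NAC, 8.65% of genes tested, and 1186 lower, 9.26%. Scaling by library size instead of TMM gave 1392 higher and 986 lower, and it moved the median of all genes from -0.0023 to 0.045 on the log2 scale. Of the called genes 212 rose and 237 fell at least 2-fold, 44 and 27 at least 4-fold, and 1145 changed by less than 1.5-fold. The control and NAC libraries did not overlap in 2292 of the called genes, and they did not overlap in 56.6% of all genes tested. Without NAC replicate 1 the test called 1338 genes, 658 higher and 680 lower, and without NAC replicate 2 it called 1523, 711 of them higher. Of the 2294 calls 967 held without each of the 6 libraries in turn, 471 higher and 496 lower, and genes named below held in this way unless a value or a count without a library is given beside them.

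**Figure D1:**
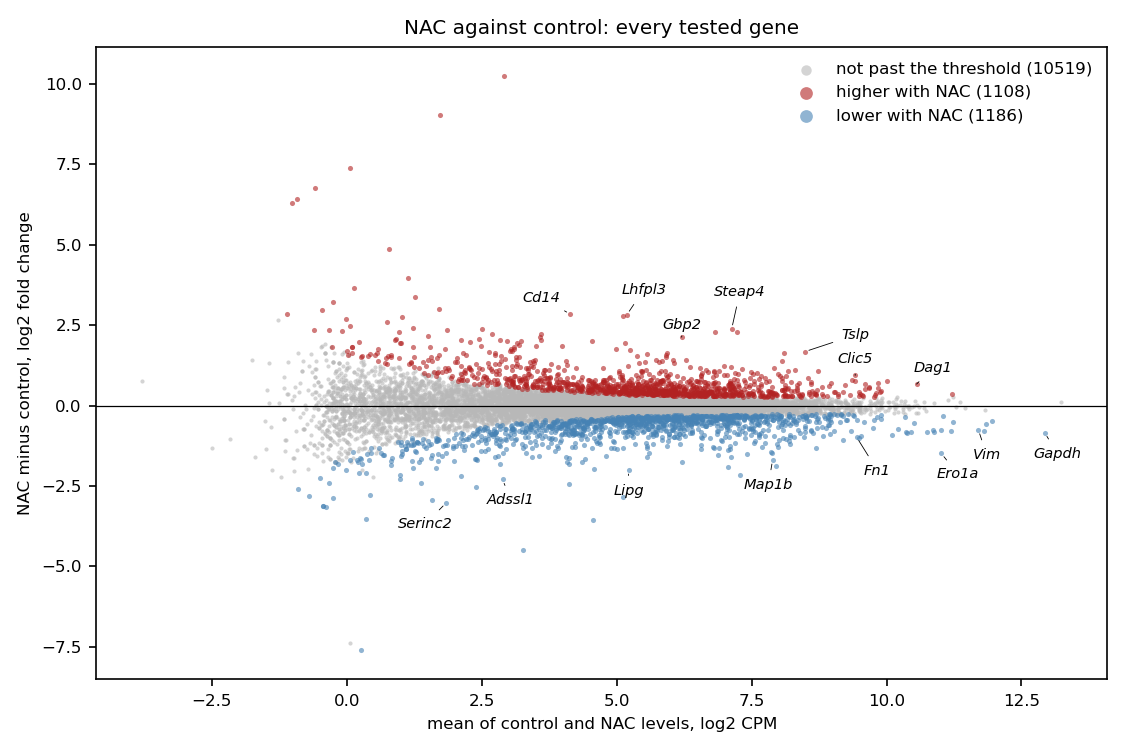
Each point is 1 of the 12813 tested genes, with the mean of its control and NAC levels in log2 CPM on the horizontal axis and its fitted log2 fold change, NAC minus control, on the vertical axis. Red points passed the threshold with higher levels under NAC (1108) and blue points with lower levels (1186). The 8 points beyond 5 in either direction are genes without a count in 1 of the groups, whose fitted change is no measure of size.

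Genes already known to differ between these libraries, those of hypoxia and glycolysis, of the amino acid response (ATF4 targets) and of astrocytes, made up a small part of the calls and a larger part of the RNA. In their lists 41 of 52, 46 of 56 and 3 of 37 tested members fell, and 0, 2 and 22 rose. Together they held 114 called genes, so that 2180 of the 2294, or 95.0%, lay outside them, 1084 higher and 1096 lower. Summed over called genes, those that fell lost 65931 CPM and those that rose gained 37867 CPM. The 3 lists held 35.8% of the loss and 4.35% of the gain. Of the 449 genes that changed at least 2-fold 398 lay outside them, and the genes with the largest changes described next are from outside. Other lists share members with these 3, and their counts include them.

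Selenop, Steap4, Pcdh15, Lhfpl3 and Cd14 were among the largest rises outside these lists. The plot of the largest rises and falls shows each library. Selenop at chr15:3270767-3280510 (GRCm38) encodes selenoprotein P, the secreted carrier that delivers selenium to brain. It read 50.6 and 51.2 CPM in control and 265 and 232 CPM with NAC, a log2 fold change of 2.29 ± 0.10 (SE) with an edgeR adjusted p of 1.5e-10. The libraries of a group lay close together and the groups far apart. Steap4, a metalloreductase for iron and copper induced in inflammation, read 42.3 and 47.9 CPM in control and 239.5 and 230.3 CPM with NAC (2.38 ± 0.11), and 85.7 and 103 CPM in the PQ libraries. Pcdh15, a protocadherin of hair cell tip links also expressed in oligodendrocyte precursors, read 8.89 and 8.73 CPM in control and 59.5 and 61.6 CPM with NAC (2.78 ± 0.14). Lhfpl3, a tetraspan protein of the same precursors, read 9.298 and 8.73 CPM in control and 60.8 and 67.1 CPM with NAC (2.82 ± 0.14), and a gene on the opposite strand covers 17.6% of its exonic bases. In both precursor genes the NAC libraries lay far above either control library and the PQ libraries between the groups. Cd14, the coreceptor for bacterial lipopolysaccharide, read 3.84 and 4.78 CPM in control and 30.5 and 31.4 CPM with NAC (2.84 ± 0.19) and 5.31 and 7.89 CPM in the PQ libraries. Rasl11a, a small GTPase, read 9.399 and 9.04 CPM in control and 37.5 and 36.8 CPM with NAC (2.01 ± 0.15) and 7.597 and 9.03 CPM with PQ, so it was high in the NAC libraries alone of the 3 groups.

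The rest of the 20 rises began from 0.809 to 29.8 CPM in control. Aldh1a1 and Aldh1a7, retinaldehyde and aldehyde dehydrogenases whose sequences are much alike and can share reads, rose with log2 fold changes of 2.03 ± 0.19 and 2.34 ± 0.34. Eln, which encodes elastin, read 1.92 and 1.45 CPM in control and 6.49 and 7.53 CPM with NAC and 0.937 and 0.7603 CPM with PQ, so that NAC and PQ lay on opposite sides of control. Dll1, a Notch ligand, read 4.04 and 3.32 CPM in control and 16.2 and 13.7 CPM with NAC (2.02 ± 0.22). Dgkb, a diacylglycerol kinase, Brinp2, a retinoic acid inducible neural protein, and Tcp11l2 rose by 1.95 ± 0.23, 1.99 ± 0.24 and 2.03 ± 0.23 on the log2 scale. Gdpd3, a lysophospholipase D, read 4.35 and 4.47 CPM in control and 19.4 and 19.5 CPM with NAC, with a change of 2.14 ± 0.18. Col9a3, Tlr2, C4b, Gbp2 and Gbp2b were the others and are described with their groups.

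The largest falls included cytoskeletal, metabolic and regulatory genes. Map1b, a microtubule-associated protein of growing neurites on the minus strand of chromosome 13, was the most abundant of the 20 and read 350.3 and 373 CPM in control and 105 and 119 CPM with NAC (-1.69 ± 0.10, edgeR adjusted p = 3.0e-09). Its PQ libraries, at 373 and 343 CPM, spanned the control values, and both NAC libraries lay well below them. Adssl1, the adenylosuccinate synthase that commits IMP to AMP in muscle and other tissues, read 12.7 and 11.8 CPM in control and 2.503 and 2.48 CPM with NAC (-2.30 ± 0.21) and 21.4 and 20.6 CPM with PQ, so that NAC was below and PQ above control. Ripor2, an inhibitor of the GTPase RhoA, read 8.99 and 8.93 CPM in control and 1.58 and 1.49 CPM with NAC (-2.54 ± 0.27) with 9.78 and 7.32 CPM in the PQ libraries. Serinc2, a multipass membrane protein named for serine incorporation into lipids, had the largest fall and read 5.56 and 7.17 CPM in control and 0.278 and 1.29 CPM with NAC (-3.03 ± 0.41). The NAC values of Serinc2 differ widely from each other, and both lie below every control and PQ library. Lipg, endothelial lipase, read 55.8 and 63.5 CPM in control and 16.3 and 13.5 CPM with NAC (-1.998 ± 0.14), a 3.99-fold decrease.

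Ahnak, a giant scaffold protein beneath the plasma membrane, read 28.1 and 23.8 CPM in control and 7.51 and 7.92 CPM with NAC (-1.75 ± 0.18), and its PQ libraries stood above control at 44.02 and 33.3 CPM. Glipr2, a Golgi-associated protein, read 64.3 and 77.2 CPM in control and 23.4 and 23.2 CPM with NAC (-1.60 ± 0.12). Transcription factors among the 20 were Insm1 of neurogenic progenitors (-2.20 ± 0.33), Nfil3, a repressor that binds D-box sites of clock genes (-1.82 ± 0.19), and Bcl11b (-1.61 ± 0.20). Crabp1 binds retinoic acid in the cytoplasm and fell by 1.60 ± 0.22 on the log2 scale, in the same libraries in which the retinaldehyde dehydrogenase Aldh1a1 rose. Cyp2e1, an ethanol-oxidising cytochrome P450 that releases reactive oxygen, read 19.7 and 33.04 CPM in control and 10.8 and 6.24 CPM with NAC (-1.62 ± 0.24). Dusp14, Rin1, Slc16a14, Tinagl1, Prelid2, Diras2 and Otub2 were also among them, with changes from -1.81 ± 0.27 in the phosphatase Dusp14 to -1.61 ± 0.24 in the deubiquitinase Otub2. Otub2 read 33.6 CPM in control replicate 2 against 16.7 in control replicate 1, and without control replicate 2 its change was -1.02.

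**Figure D2:**
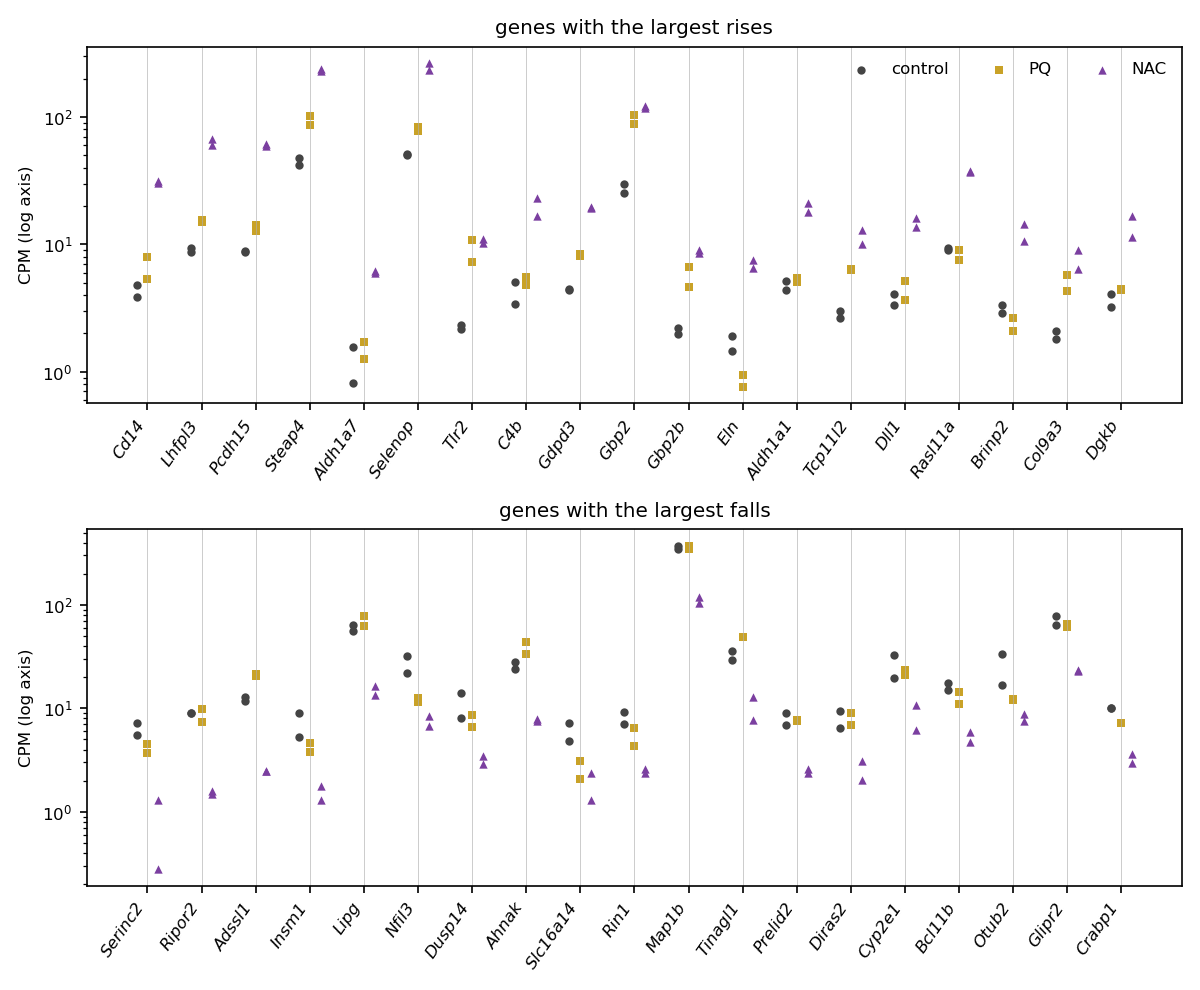
Levels in CPM, on a log axis, of 19 of the 20 genes with the largest rises (upper panel) and 19 of the 20 with the largest falls (lower panel) under the naming rule, with both libraries of control (circles), PQ (squares) and NAC (triangles). Control and NAC points are apart in these 38 genes because the naming rule asked for it. PQ points lie near the control level in Rasl11a and Map1b and beyond control in the direction opposite to NAC in Eln and Adssl1.

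The windows of 250 bases upstream of the annotated start were searched on both strands for the letters ACGTG (the core of the hypoxia response element), TGATGCA (a core shared by C/EBP and ATF sites) and TGACTCA (the AP-1 core), because fallers outside the hypoxia and ATF4 lists could still carry the motifs of those lists. RefSeq sequences of GRCm38.p6 were matched for 10218 of the 12813 tested genes. ACGTG was present in 52.8% of the matched windows of hypoxia-list fallers (19 of 36), in 23.1% of windows of the genes that fell outside the lists, in 21.4% of those that rose and in 21.9% of all tested genes. TGATGCA was present in 18.4% of ATF4-list fallers (7 of 38), 2.57% of fallers outside the lists, 1.49% of genes that rose and 1.62% of tested genes. TGACTCA was present in 4.43% of fallers outside the lists, 4.01% of genes that rose and 2.86% of tested genes. Fallers of at least 2-fold outside the lists had 151 windows. Of these 21.2% held ACGTG, 3.31% (5) TGATGCA and 7.28% (11) TGACTCA. Over all 27025 windows of the table the shares were 16.6%, 2.73% and 4.43%. Of the 20 largest falls 16 had a window, of which 4 held ACGTG, 1 TGATGCA and 2 TGACTCA. Of the 20 largest rises 14 had a window, of which 2, 0 and 2 held them.
The 4 windows printed here, 5′ to 3′ on the strand of the gene, show fallers outside the lists that hold a motif, with the matched letters in capitals. They are Ripor2 (chr13:24581939-24582188, plus strand, 2 ACGTG matches, both read on the other strand), Adssl1 (chr12:112619797-112620046, plus strand, 1 ACGTG and 1 TGACTCA match on the other strand), Map1b (chr13:99516603-99516852, minus strand, 1 ACGTG) and Crabp1 (chr9:54764498-54764747, plus strand, 1 TGATGCA on the other strand).
Ripor2: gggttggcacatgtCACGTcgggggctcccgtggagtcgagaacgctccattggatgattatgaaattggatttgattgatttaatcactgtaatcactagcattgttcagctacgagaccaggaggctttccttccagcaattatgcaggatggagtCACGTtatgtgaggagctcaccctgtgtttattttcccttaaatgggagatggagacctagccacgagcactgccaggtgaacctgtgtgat
Adssl1: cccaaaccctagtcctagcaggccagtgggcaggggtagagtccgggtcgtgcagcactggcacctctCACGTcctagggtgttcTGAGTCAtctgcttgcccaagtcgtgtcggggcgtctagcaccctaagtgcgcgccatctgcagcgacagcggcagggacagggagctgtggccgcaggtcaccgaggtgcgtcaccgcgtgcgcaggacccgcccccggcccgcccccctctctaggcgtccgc
Map1b: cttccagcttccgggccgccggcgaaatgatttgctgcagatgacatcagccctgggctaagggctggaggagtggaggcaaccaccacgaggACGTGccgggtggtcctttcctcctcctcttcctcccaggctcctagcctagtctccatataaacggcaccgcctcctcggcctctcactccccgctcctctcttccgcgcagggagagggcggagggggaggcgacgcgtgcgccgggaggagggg
Crabp1: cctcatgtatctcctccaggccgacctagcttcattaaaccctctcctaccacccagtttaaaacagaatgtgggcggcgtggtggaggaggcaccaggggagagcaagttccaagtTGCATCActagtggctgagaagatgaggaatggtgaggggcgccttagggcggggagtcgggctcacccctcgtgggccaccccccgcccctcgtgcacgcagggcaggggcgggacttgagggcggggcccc
A match is a stretch of letters and no measured binding.

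By amount, the largest gains and losses outside the 3 lists were in a few abundant transcripts. Vim, which encodes vimentin, read 4306 and 4058 CPM in control and 2467 and 2489 CPM with NAC (-0.76 ± 0.09, edgeR adjusted p = 5.7e-06), and PQ libraries lay above control at 4871 and 4594 CPM. Igfbp3, a secreted binding protein for insulin-like growth factors, read 2434 and 2749 CPM in control and 1542 and 1550.4 CPM with NAC (-0.75 ± 0.09). Odc1, ornithine decarboxylase at the entry to polyamine synthesis, read 2913 and 3022 CPM in control and 1646 and 1822 CPM with NAC (-0.78 ± 0.09), and Scd2, the stearoyl-CoA desaturase of brain, 5079.9 and 4228 CPM in control and 3226 and 3425 CPM with NAC (-0.48 ± 0.10). In these 4 genes the higher NAC library lay below the lower control library. Groups were apart in this way in nearly all called genes and in 56.6% of all tested genes. Among the gains, Dag1, the dystroglycan gene whose product links laminin to the cytoskeleton, read 1238 and 1089 CPM in control and 1829 and 1867 CPM with NAC (0.67 ± 0.09). Clic5, a chloride intracellular channel protein, read 454 and 484 CPM in control and 926 and 873 CPM with NAC (0.94 ± 0.09). Ptprz1, a receptor phosphatase and proteoglycan of radial glia, read 502 and 518 CPM in control and 881 and 832 CPM with NAC (0.75 ± 0.09) and 415 and 416 CPM with PQ. Those 3 genes rose 1.59-fold, 1.92-fold and 1.68-fold. Tslp, an epithelial-type cytokine, read 137 and 205 CPM in control and 523 and 570.0 CPM with NAC (1.68 ± 0.13), with the PQ libraries between the groups at 298 and 312 CPM. Nptx1, a secreted pentraxin of synapses, read 707 and 793 CPM in control and 1034 and 1148 CPM with NAC (0.54 ± 0.09) and 540.1 and 551 CPM with PQ. Syt11, a synaptotagmin of vesicle traffic, rose by 0.66 ± 0.09 on the log2 scale. Hspa8, the constitutive heat shock cognate, was called at 0.35 ± 0.09, with an edgeR adjusted p of 0.012 that became 0.15 without control replicate 2 and 0.11 without NAC replicate 1.

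**Figure D3:**
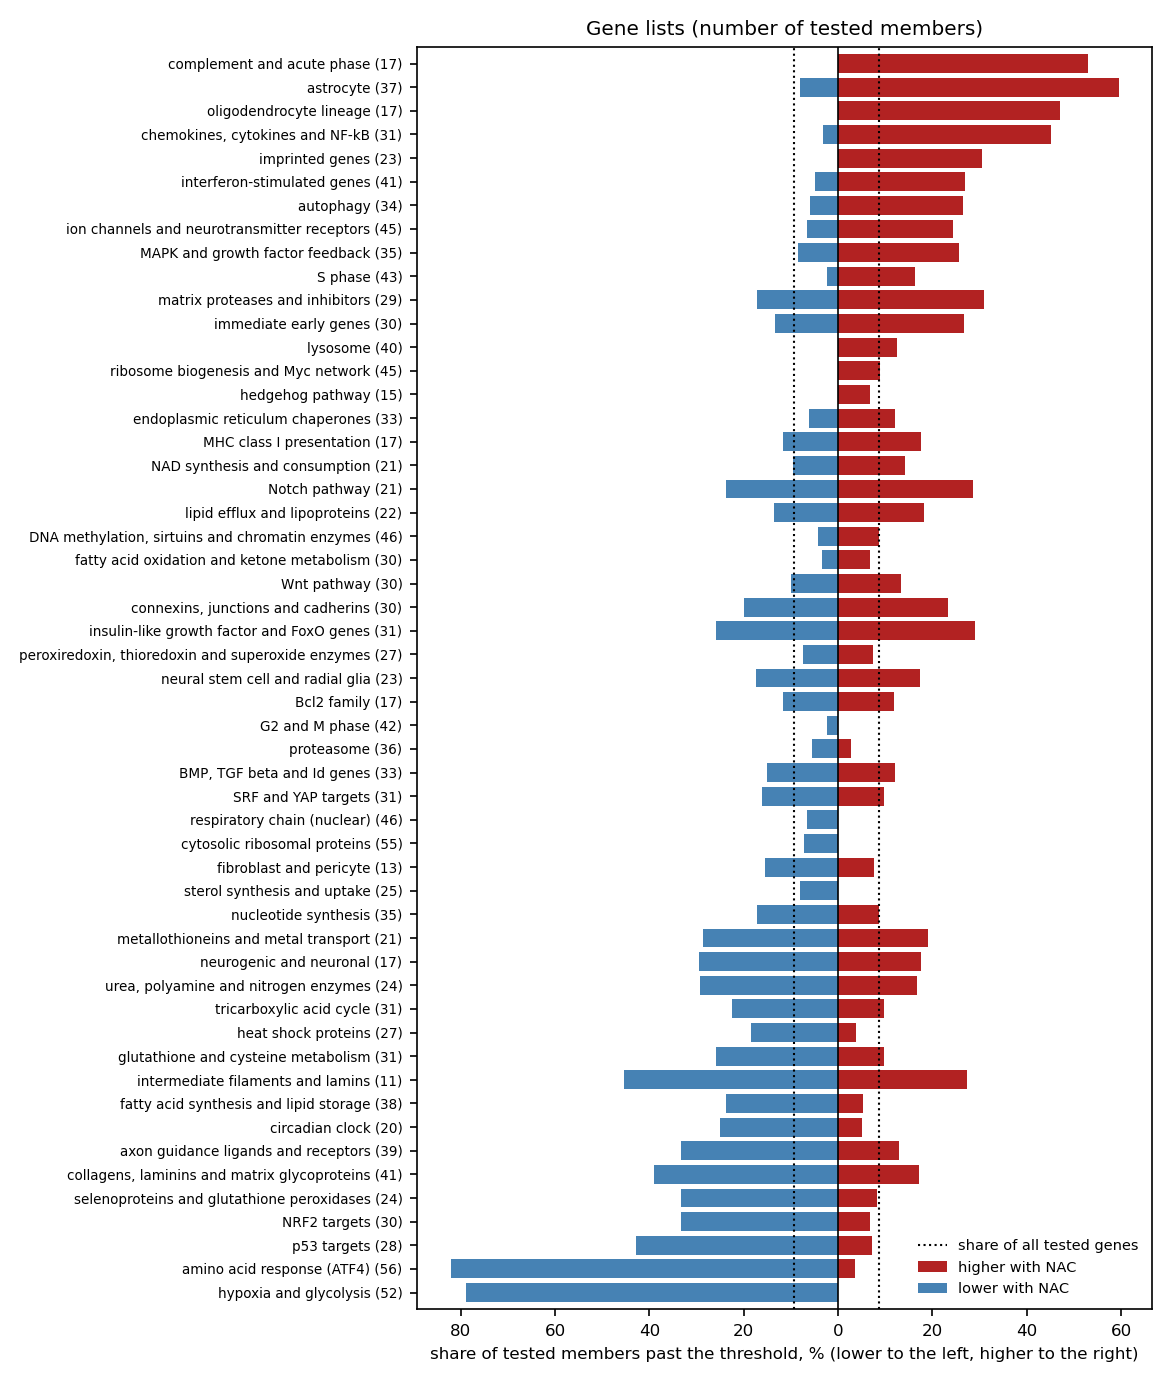
Share of tested members, in percent, that passed the threshold with higher (red, to the right) or lower (blue, to the left) levels under NAC, for the gene lists with at least 10 tested members, whose number stands in parentheses. Dotted lines mark the shares of all tested genes, 8.65% higher and 9.26% lower. Complement, astrocyte, oligodendrocyte lineage and cytokine lists stand at the top, and the hypoxia, ATF4, p53 and NRF2 lists at the bottom.

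Genes of the extracellular matrix fell more often than they rose, and the risers included brain proteoglycans. Of 41 tested collagens, laminins and matrix glycoproteins 16 fell (39.02%) and 7 rose (17.1%), beside 9.26% and 8.65% of all genes, with a median log2 fold change of -0.24 against -0.0023 for all genes. Sparc, a collagen-binding glycoprotein, read 984 and 928 CPM in control and 472 and 476 CPM with NAC (-1.01 ± 0.09, edgeR adjusted p = 2.7e-07). Fn1, fibronectin, read 976 and 872 CPM in control and 437 and 501 CPM with NAC (-0.98 ± 0.10), and Tnc, tenascin C of the stem cell niche, 565 and 536 CPM in control and 330.1 and 357 CPM with NAC (-0.68 ± 0.09). The decreases were 2.02-fold, 1.97-fold and 1.60-fold. The groups did not overlap, as in nearly all called genes and 56.6% of all tested genes. Fibril-associated and fibrillar collagens were among the fallers, with Col12a1 at -1.57 ± 0.18, Col5a1 at -0.92 ± 0.11 and the beaded-filament collagen Col6a1 at -0.91 ± 0.14, as was tenascin R, Tnr (-1.15 ± 0.22). The risers were the cartilage-type chains Col11a1, from 189 and 174 CPM in control to 338 and 347 CPM with NAC (0.92 ± 0.10), and Col9a3 (1.98 ± 0.29), the laminin chain Lamb2 (0.77 ± 0.12), and the proteoglycans Cspg5 (1.01 ± 0.10), Ncan (0.66 ± 0.10) and Bcan (0.67 ± 0.10). The seventh was Thbs1, with an edgeR adjusted p of 0.035 that became 0.066 without control replicate 1, 0.24 without control replicate 2, 0.055 without PQ replicate 1, 0.057 without PQ replicate 2, 0.11 without NAC replicate 1 and 0.2 without NAC replicate 2. Without NAC replicate 1 the list had 10 members lower.

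Proteases and their inhibitors moved in both directions, with 9 of 29 higher (31.0%) and 5 lower (17.2%), beside 8.65% and 9.26% of all genes. Of the higher members, Adam12, Adamts5, Timp1 and Timp3 lost the call without at least 1 library. Tissue inhibitors of metalloproteinases Timp2 (50.6 and 49.2 CPM in control and 83.3 and 74.4 CPM with NAC, 0.66 ± 0.11) and Timp4 (0.98 ± 0.19) rose, as did the protease inhibitor Serpine2 (0.52 ± 0.08), the aggrecanase Adamts4 (0.68 ± 0.11) and the membrane-type metalloproteinase Mmp15 (0.59 ± 0.10). Serpinf1, the antiangiogenic factor PEDF, fell by 1.48 ± 0.31. Without NAC replicate 1 the number of lower members was 2, Serpinf1 among them. Of 11 intermediate filament and lamin genes 5 fell and 3 rose. Besides Vim, the A-type lamin gene Lmna fell (178 and 181 CPM in control and 84.9 and 96.6 CPM with NAC, -0.98 ± 0.10), and the neurofilaments Nefl (-0.98 ± 0.15) and Nefm (-0.99 ± 0.14), which share exonic bases with each other on opposite strands, fell. The astrocyte filament gene Gfap rose (1.23 ± 0.21). Nes had an edgeR adjusted p of 0.031 that became 0.12 without control replicate 1, 0.06 without control replicate 2, 0.059 without PQ replicate 1, 0.056 without PQ replicate 2, 0.13 without NAC replicate 1 and 0.15 without NAC replicate 2. The B-type lamins Lmnb1 and Lmnb2 were called higher at 0.40 ± 0.09 and 0.41 ± 0.13, and both lost the call without at least 1 library. The change of Lmnb1 was 0.30 without NAC replicate 1. That of Lmnb2 was 0.22 without control replicate 2 and 0.63 without control replicate 1.

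Of 39 axon guidance genes 13 fell (33.3%) and 5 rose, with a median of -0.15. Secreted class 3 semaphorins, repellents of growing axons, were among them: Sema3a read 52.2 and 58.3 CPM in control and 31.5 and 33.6 CPM with NAC (-0.76 ± 0.11), Sema3c fell by 0.61 ± 0.12 (-0.41 without control replicate 2), Sema3e by 1.03 ± 0.20 and Sema3f by 0.70 ± 0.16 on the log2 scale. The semaphorin coreceptor Nrp2 read 120.4 and 125 CPM in control and 80.2 and 79.3 CPM with NAC (-0.62 ± 0.10). The netrin receptor Unc5b read 182 and 146 CPM in control and 69.1 and 88.6 CPM with NAC (-1.06 ± 0.13), and the ephrin system genes Efnb2, Epha2 and Epha7 fell by 0.82 ± 0.14, 0.62 ± 0.11 and 0.89 ± 0.19. In Nrp2, Sema3a and Unc5b every NAC library lay below every control library. Nearly all called genes and 56.6% of all tested genes had no overlap of groups. Among risers, the netrin Ntn4 read 41.6 and 43.1 CPM in control and 85.8 and 81.8 CPM with NAC (0.98 ± 0.10), and the plexin receptor Plxna2 rose by 0.60 ± 0.10, and the number of higher members was 2 without NAC replicate 1 and 3 without NAC replicate 2. Adhesion genes of junctions and cadherins went both ways, 7 of 30 higher and 6 lower. The connexin Gjc3 of oligodendrocytes (1.04 ± 0.10), Cdh20 (1.09 ± 0.11) and Ncam2 (1.04 ± 0.12) rose. Cdh6 (-0.98 ± 0.14), the planar polarity cadherin Celsr1 (-1.04 ± 0.19), Ncam1 (-0.51 ± 0.10) and Nrcam (-0.51 ± 0.08) fell.

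Ion channels and neurotransmitter receptors rose in 11 of 45 members (24.4%) and fell in 3. The inward rectifier potassium channels of glia, Kcnj10 (199 and 183 CPM in control and 359 and 329 CPM with NAC, 0.85 ± 0.10) and its partner subunit Kcnj16 (1.11 ± 0.11), rose together. Grm5, a metabotropic glutamate receptor, read 195 and 196 CPM in control and 379.6 and 362 CPM with NAC (0.92 ± 0.09) and 112 and 101 CPM with PQ, so that PQ and NAC lay on opposite sides of control. The adenosine receptor Adora1 and the purinergic receptor P2ry1 rose by 0.52 ± 0.10 and 0.49 ± 0.10. Fallers were the T-type calcium channel Cacna1h (-1.002 ± 0.13) and the potassium channel subunit Kcnf1 (-1.84 ± 0.41), and Cacna1a with an edgeR adjusted p of 0.02 that became 0.077 without control replicate 2 and 0.15 without NAC replicate 1. Without NAC replicate 1 the list had 6 members higher.

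**Figure D4:**
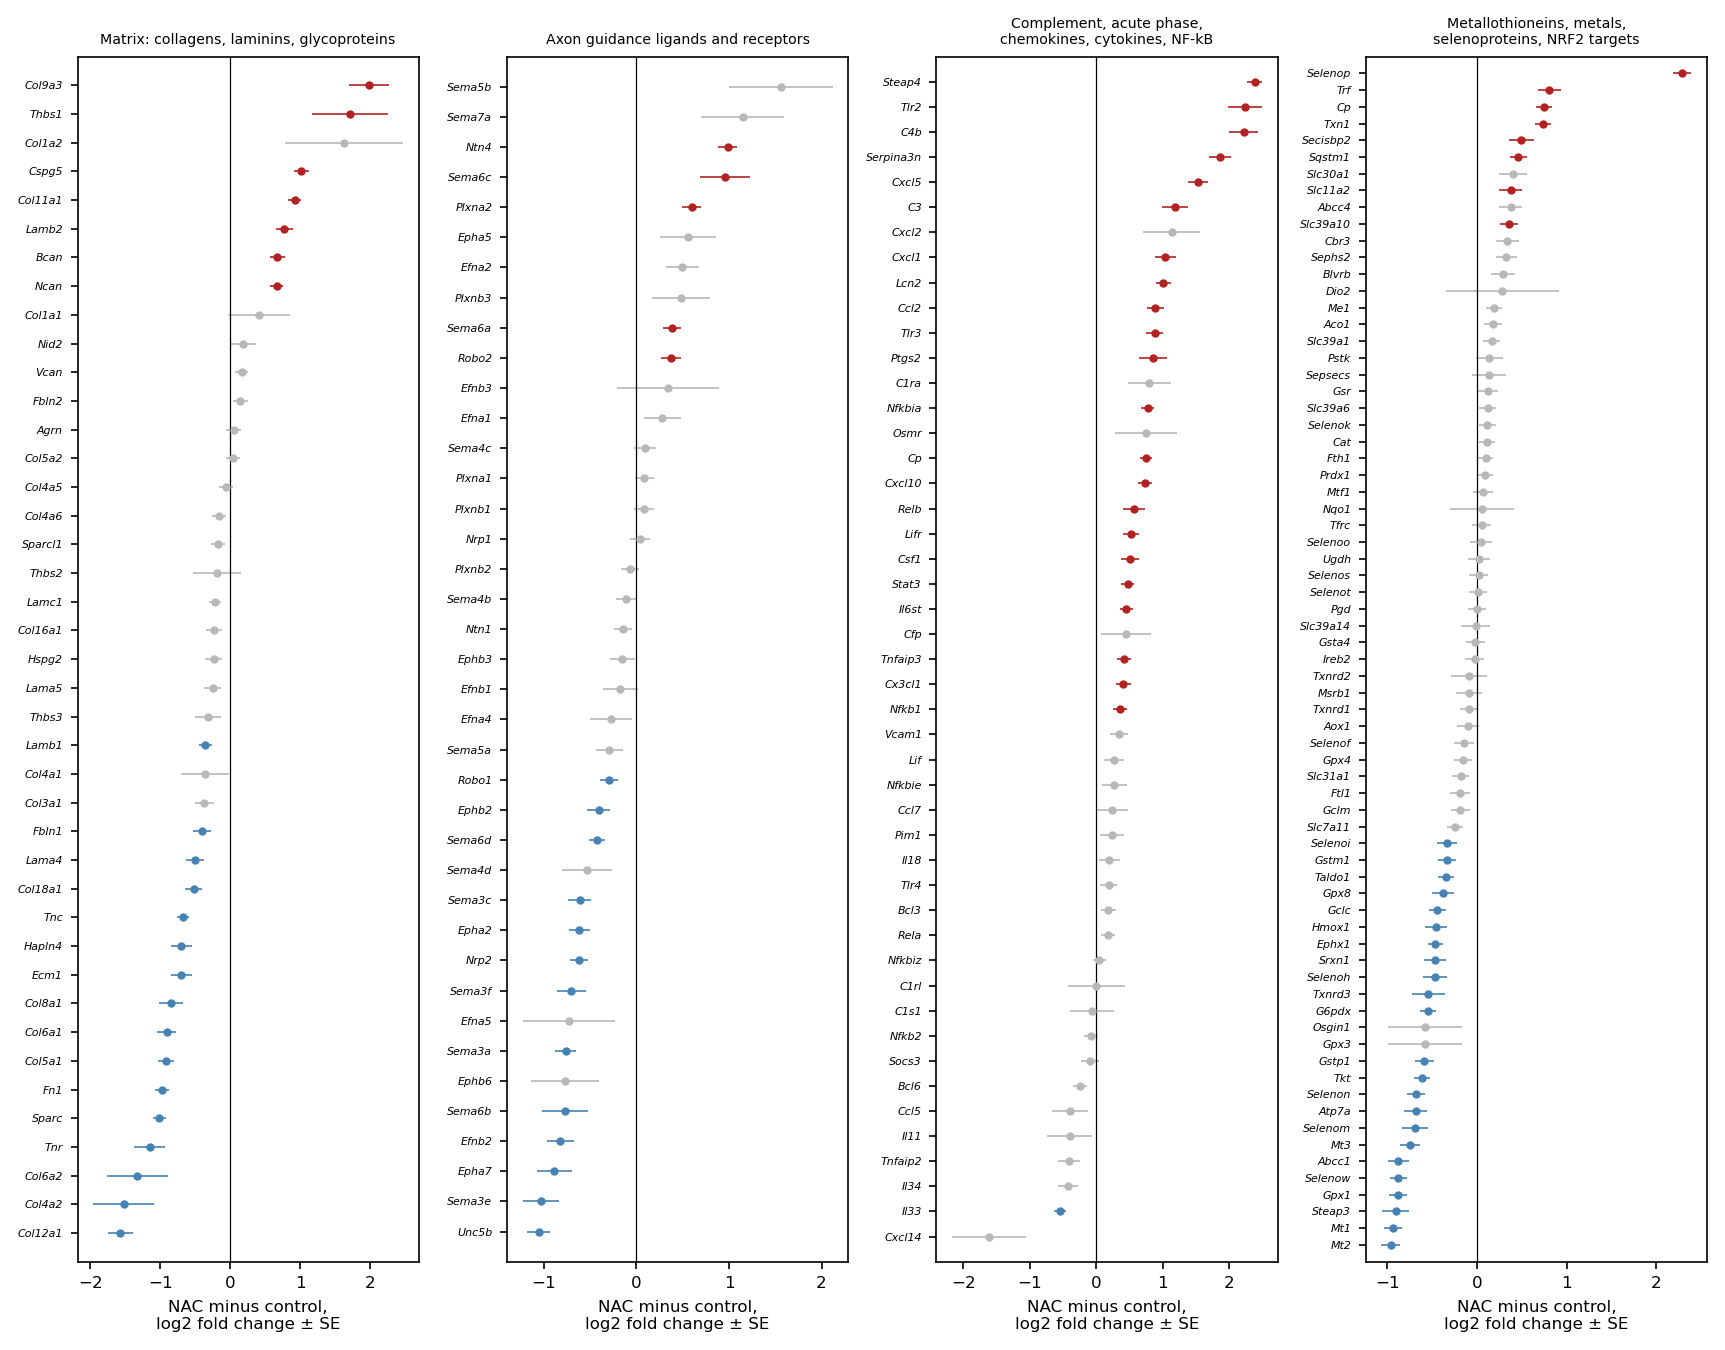
Log2 fold change, NAC minus control, with its SE, for every tested member of the matrix list, the axon guidance list, the complement, acute phase and cytokine lists, and the metal, selenoprotein and NRF2 lists, from lowest to highest. Red and blue points passed the threshold upward and downward, and gray points did not pass. Col12a1 (-1.57) and Unc5b (-1.06) lie at the bottom of their panels and Steap4 (2.38) and Selenop (2.29) at the top of theirs.

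In the NRF2, selenoprotein and glutathione lists more genes fell than rose, and the peroxiredoxin list was called equally in both directions. The metal list was called in both directions, with both shares above those of all genes, 9.26% lower and 8.65% higher. Its median log2 fold change was 0.053, with 11 estimates above 0 and 10 below. All 3 tested metallothioneins fell: Mt1 read 644 and 551 CPM in control and 312 and 311 CPM with NAC (-0.94 ± 0.10), Mt2 423 and 402 CPM in control and 195 and 228 CPM with NAC (-0.96 ± 0.10) and the brain form Mt3 62.4 and 57.7 CPM in control and 35.96 and 35.7 CPM with NAC (-0.74 ± 0.11). The metallothionein and metal list had 6 of 21 members lower and 4 higher, and without NAC replicate 1 it had 2 higher. Atp7a, a copper pump, and the endosomal iron reductase Steap3 fell by 0.68 ± 0.13 and 0.91 ± 0.15. The ferroxidase Cp, ceruloplasmin, read 726 and 802 CPM in control and 1337 and 1229.5 CPM with NAC (0.75 ± 0.09), and transferrin, Trf, 19.8 and 19.3 CPM in control and 34.3 and 34.3 CPM with NAC (0.81 ± 0.13). The groups did not overlap in these 7 genes, as in nearly all called genes and 56.6% of all tested genes.

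Of 24 selenoproteins and glutathione peroxidases 8 fell and 2 rose. Gpx1, the cytosolic glutathione peroxidase, read 96.5 and 96.8 CPM in control and 54.97 and 49.8 CPM with NAC (-0.88 ± 0.10), and the small thiol proteins Selenow (197 and 189 CPM in control and 98.3 and 112 CPM with NAC, -0.88 ± 0.10) and Selenom (-0.69 ± 0.14) fell, as did Selenon of the endoplasmic reticulum (-0.68 ± 0.10). The carrier Selenop rose 4.88-fold in the same libraries. The number of lower members was 5 without control replicate 1, PQ replicate 1 or NAC replicate 2, 4 without NAC replicate 1, and 5 with library size scaling. Of 30 NRF2 targets 10 fell (33.3%) and 2 rose, with a median of -0.10, and without NAC replicate 1 the number lower was 6. Those that fell included the glutathione exporter Abcc1 (-0.88 ± 0.12), the pentose phosphate enzymes G6pdx (-0.54 ± 0.09) and Tkt (602 and 569 CPM in control and 359 and 408 CPM with NAC, -0.61 ± 0.09), the glutathione transferase Gstp1 (-0.58 ± 0.11), the epoxide hydrolase Ephx1 (-0.46 ± 0.09) and Gclc (153 and 153 CPM in control and 115 and 111 CPM with NAC, -0.44 ± 0.10), the catalytic subunit of the enzyme that limits glutathione synthesis. Classical members Nqo1 (0.06 ± 0.36), Gclm (-0.19 ± 0.11), Txnrd1 (-0.09 ± 0.09) and the cystine carrier Slc7a11 (-0.24 ± 0.09) did not pass. The risers were Txn1, cytosolic thioredoxin, from 163 and 166 CPM in control to 267 and 279.5 CPM with NAC (0.74 ± 0.09), and Sqstm1 (0.46 ± 0.09), an autophagy receptor with 17.3% of its exonic bases shared with an opposite gene.

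Of 31 glutathione and cysteine genes 8 fell and 3 rose. Several fallers, Chac1, Cth and Got1, are also ATF4 targets. Apart from these, Slc6a6, the taurine transporter, read 557 and 475 CPM in control and 316 and 325 CPM with NAC (-0.69 ± 0.09), and the gamma-glutamyltransferase Ggt7 fell by 0.96 ± 0.19. The 3 higher members were Cdo1, Csad and Acy3. Cdo1, cysteine dioxygenase, read 1.11 and 0.312 CPM in control and 2.503 and 3.56 CPM with NAC, with an edgeR adjusted p of 0.0047 that became 0.066 without control replicate 2 and 0.066 without NAC replicate 2. Csad and Acy3 (0.37 ± 0.12 and 0.48 ± 0.16) also lost the call, and the list had 0 members higher without control replicate 2 or NAC replicate 2 and 1 without NAC replicate 1, PQ replicate 1 or PQ replicate 2. Peroxiredoxin, thioredoxin and superoxide enzymes showed 2 of 27 higher (Txn1 and Msrb3) and 2 lower (Prdx5 and Srxn1), shares near those of all genes. Msrb3, Prdx5 and Srxn1 each lost the call without at least 1 library, with the list at 1 to 2 higher and 0 to 2 lower.

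Genes of innate immunity rose more often than they fell. The complement and acute phase list had 9 of 17 tested members higher (52.9%) and 0 lower, with a median of 0.52. Complement components C4b (5.05 and 3.43 CPM in control and 16.7 and 22.97 CPM with NAC, 2.22 ± 0.22) and C3 (5.86 and 5.402 CPM in control and 12.6 and 13.1 CPM with NAC, 1.19 ± 0.20) rose, and reads of C4b can be shared with its near-identical copies. Serpina3n, an acute phase protease inhibitor from a cluster of like genes, read 6.87 and 6.86 CPM in control and 22.99 and 27.03 CPM with NAC (1.86 ± 0.16). The receptor subunit Il6st and the transcription factor Stat3, which transmit interleukin-6 family signals, rose by 0.45 ± 0.10 and 0.47 ± 0.10. In all of these each NAC library lay above each control library. The groups did not overlap in nearly all called genes and in 56.6% of all tested genes. Of 31 chemokine, cytokine and NF-kB genes 14 rose (45.2%) and 1 fell, and 9 rose without NAC replicate 2. The neutrophil chemokines Cxcl5 (19.1 and 23.6 CPM in control and 63.03 and 60.2 CPM with NAC, 1.53 ± 0.15) and Cxcl1 (1.04 ± 0.15), the monocyte chemokine Ccl2 (0.89 ± 0.12), the siderophore binder Lcn2 (57.5 and 70.3 CPM in control and 125 and 132 CPM with NAC, 1.01 ± 0.12) and the NF-kB inhibitor Nfkbia (55.9 and 64.00 CPM in control and 104 and 100.4 CPM with NAC, 0.77 ± 0.10) rose. Toll-like receptors Tlr2 (2.32 and 2.18 CPM in control and 11.03 and 10.3 CPM with NAC, 2.24 ± 0.25) and Tlr3 (0.88 ± 0.13) rose, and PQ libraries had 7.28 and 10.8 CPM of Tlr2. The member that fell was the alarmin Il33, from 172 and 183 CPM in control to 122 and 122 CPM with NAC (-0.54 ± 0.09), with 303 and 277 CPM in the PQ libraries.

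Of 41 interferon-stimulated genes 11 rose (26.8%) and 2 fell, and 7 rose without NAC replicate 1. The guanylate-binding proteins Gbp2 (25.2 and 29.8 CPM in control and 121 and 119 CPM with NAC, 2.13 ± 0.12) and Gbp3 (27.6 and 30.2 CPM in control and 75.3 and 77.6 CPM with NAC, 1.40 ± 0.12) had the largest rises of the list, and Gbp2 can share reads with Gbp2b (2.07 ± 0.26). Parp14 (0.87 ± 0.12), the transcription factor Irf1 (0.70 ± 0.11), Ifit3 (1.10 ± 0.24) and the immunity-related GTPase Irgm1 (0.65 ± 0.14) rose. The exonuclease Isg20 and the RNA helicase regulator Dhx58 fell by 1.65 ± 0.33 and 1.41 ± 0.23, and both had higher levels with PQ than with control or NAC (6.76 and 7.32 CPM for Isg20 and 10.2 and 11.7 CPM for Dhx58). In antigen presentation 3 of 17 genes rose and 2 fell. Of these Erap1, a peptide trimmer, kept its call (0.58 ± 0.11), and without control replicate 2 the list had 1 higher member. The class I heavy chain H2-K1 (-0.34 ± 0.10), whose copies can share reads, had an edgeR adjusted p of 0.026 that became 0.13 without control replicate 1 and 0.3 without NAC replicate 1, and H2-D1 (-0.41 ± 0.11) an edgeR adjusted p of 0.013 that became 0.23 without NAC replicate 1. The microglia and blood cell list had 5 of 25 members tested, with 2 higher, Cd14 and P2ry12, 9 members without a count in the 4 libraries, and a summed level of 65.0 to 66.0 CPM in control and 98.7 to 99.5 CPM with NAC. Summed levels of marker lists are over every listed member, tested or not, in CPM by library size without TMM. P2ry12 had an edgeR adjusted p of 0.0034 that became 0.091 without NAC replicate 1. The part of such cells in the immune genes was not tested.

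Lineage markers other than those of astrocytes moved in both directions. Of 17 tested oligodendrocyte lineage genes 8 rose (47.1%) and 0 fell, and 5 rose without control replicate 2 or NAC replicate 2. Sox8, a transcription factor of glial precursors, read 99.3 and 106 CPM in control and 202 and 201 CPM with NAC (0.97 ± 0.11), and Cspg5, neuroglycan C, 125 and 133 CPM in control and 252 and 268 CPM with NAC (1.01 ± 0.10). Omg, oligodendrocyte myelin glycoprotein, was near its detection limit in control, at 0.303 and 0.208 CPM in control and 5.19 and 3.07 CPM with NAC (3.95 ± 0.54). Of the 30 listed markers 6, Mog, Mag, Opalin, Enpp6, Neu4 and Matn4, had no count in the 4 libraries. The summed level of all 30 was 2443 to 2663 CPM in control and 3246 to 3519 CPM with NAC. Of 17 tested neurogenic and neuronal genes 5 fell and 3 rose, and the summed level of all 32 listed was 438 to 439 CPM in control and 499 to 501 CPM with NAC. Fallers were Insm1, Tubb3 (2.32 and 4.26 CPM in control and 0.556 and 0.792 CPM with NAC, -2.27 ± 0.46), the splicing factor Celf4 (18.6 and 19.3 CPM in control and 9.27 and 7.72 CPM with NAC, -1.15 ± 0.16), Nefl and Nefm. Map2, a dendritic microtubule protein, read 194 and 204 CPM in control and 359 and 318 CPM with NAC (0.77 ± 0.09), Gap43 of growth cones rose by 1.23 ± 0.20, and Nsg2 had an edgeR adjusted p of 0.0052 that became 0.051 without control replicate 1. Of 23 tested stem cell and radial glia markers 4 rose and 4 fell, and the summed level of all 30 listed was 7882 to 8118 CPM in control and 6713 to 6748 CPM with NAC. Ednrb, the endothelin receptor, read 59.1 and 68.3 CPM in control and 142 and 134 CPM with NAC (1.11 ± 0.10) and rose with Ptprz1, and Vim and Tnc fell. Sox3 (0.68 ± 0.15) had an edgeR adjusted p of 0.004 that became 0.053 without NAC replicate 2, and Emx2 (0.49 ± 0.14) an edgeR adjusted p of 0.02 that became 0.12 without control replicate 1 and 0.15 without NAC replicate 1. Nes and Sox2 were called lower at -0.28 ± 0.09 and -0.31 ± 0.10. Sox2 had an edgeR adjusted p of 0.028 that became 0.27 without control replicate 2, 0.051 without PQ replicate 1, 0.17 without NAC replicate 1 and 0.088 without NAC replicate 2, and the list had 2 lower members without control replicate 2, PQ replicate 1 or NAC replicate 1 and with library size scaling.

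Markers of other cell types the cultures could hold were tested only in part. Their calls stand beside 8.65% higher and 9.26% lower of all tested genes. The fibroblast and pericyte list had 2 of 13 lower, Fn1 and the contractile regulator Cald1 (-0.74 ± 0.11), and 1 higher, Acta2 with an edgeR adjusted p of 0.032 that became 0.19 without control replicate 1, 0.054 without control replicate 2, 0.074 without NAC replicate 1 and 0.18 without NAC replicate 2. The summed level of its 22 listed members was 1029 to 1148 CPM in control and 581 to 661 CPM with NAC, most of it Fn1. Endothelial markers had 4 of 20 members tested and ependymal and choroid plexus markers 6 of 20, with 0 called in either. So few tested members cannot be set apart from the shares of all genes. The summed levels of all 20 listed members were 138 to 155 CPM in control and 152 to 181 CPM with NAC for endothelial and 25.8 to 30.8 CPM and 25.5 to 26.5 CPM for ependymal markers. Their part in the results was not tested.

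Among signalling genes, the Notch list was called in both directions and the growth factor feedback list more often upward. Of 21 Notch pathway genes 6 rose (28.6%) and 5 fell (23.8%), with a median of -0.08. The fallers were Rbpj, Dner, Hes6, Notch4 and Numbl. With each library left out in turn, only Dll1, Dll4 and Rbpj held among the called members. The ligands Dll1 and Dll4 (0.9096 and 0.727 CPM in control and 3.43 and 2.87 CPM with NAC, 1.93 ± 0.41) rose, and Rbpj, the DNA-binding partner of cleaved Notch, read 277 and 249 CPM in control and 185 and 175 CPM with NAC (-0.55 ± 0.10). The number of called members changed with single libraries: 3 were higher without control replicate 2 and 2 without NAC replicate 2, and 2, 1 and 3 were lower without control replicate 1, NAC replicate 1 and NAC replicate 2. MAPK and growth factor feedback genes rose in 9 of 35 and fell in 3, with 4 higher without NAC replicate 1. Spry1, a sprouty inhibitor of receptor signals, read 124 and 128 CPM in control and 232 and 228 CPM with NAC (0.87 ± 0.09), and Dusp6, the ERK phosphatase, 216 and 217 CPM in control and 342 and 333 CPM with NAC (0.64 ± 0.09). Fgf1, a growth factor, rose by 0.95 ± 0.12, and the EGF receptor ligands went apart, with Tgfa higher (0.99 ± 0.20, and 0.65 without control replicate 2) and Hbegf (206 and 224 CPM in control and 117 and 119 CPM with NAC, -0.86 ± 0.10) and Areg (-0.82 ± 0.13) lower. The receptor Fgfr2 fell by 1.24 ± 0.27. Immediate early genes rose in 8 of 30, among them Fos (10.7 and 9.04 CPM in control and 20.1 and 27.8 CPM with NAC, 1.27 ± 0.18), Egr2 (1.38 ± 0.17), Egr1 (0.55 ± 0.10), Junb (0.70 ± 0.11), Zfp36 (1.17 ± 0.14) and Gadd45b (1.43 ± 0.19). Of 4 that were called lower (Atf3, Fosl1, Fosl2 and Klf4) the number was 2 without control replicate 2 and 1 without NAC replicate 1, and 57.2% of the exonic bases of Fosl1 are shared with an opposite gene.

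Insulin-like growth factor and FoxO genes were called in both directions, 9 of 31 higher and 8 lower. Irs1, the insulin receptor substrate, read 109 and 101 CPM in control and 160.4 and 171 CPM with NAC (0.66 ± 0.09), Igfbp4 rose by 0.86 ± 0.13, and Arrdc4 and Foxo4 by 0.62 ± 0.12 and 0.64 ± 0.13. Igfbp3, the cyclin G2 gene Ccng2 (-0.81 ± 0.13) and the kinase Sgk1 (-0.65 ± 0.10) fell. The number higher was 4 without NAC replicate 2, and the number lower 5 without either control replicate, 3 without NAC replicate 1 and 4 without NAC replicate 2. Clock genes fell in 5 of 20 and rose in 1. Nfil3 read 22.03 and 32.00 CPM in control and 6.77 and 8.52 CPM with NAC, Ciart, a repressor of the clock, 19.4 and 18.3 CPM in control and 6.396 and 9.21 CPM with NAC (-1.28 ± 0.18), and Bhlhe41 fell by 0.84 ± 0.16. The number lower was 3 without NAC replicate 1, and the riser, Hlf, had an edgeR adjusted p of 0.033 that became 0.14 without control replicate 1, 0.14 without control replicate 2, 0.18 without NAC replicate 1 and 0.13 without NAC replicate 2. BMP, TGF beta and Id genes (4 of 33 higher, 5 lower), Wnt genes (4 of 30 higher, 3 lower), SRF and YAP targets (3 of 31 higher, 5 lower) and hedgehog genes (1 of 15 higher, 0 lower) had shares closer to those of all genes. Members that held were Id3 (0.66 ± 0.13), the frizzled receptor Fzd9 (0.76 ± 0.17) and Gas1 (108 and 107 CPM in control and 170.2 and 184 CPM with NAC, 0.72 ± 0.10) upward and Fstl1 (-0.57 ± 0.10) downward. With single libraries left out, the BMP list had 1 to 4 higher and 1 to 5 lower, the Wnt list 1 to 4 and 0 to 3, and the SRF and YAP list 0 to 2 and 4 to 6.

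In the G2 and M phase list 1 of 42 genes fell and 0 rose, with a median of 0.001. It was Anln, anillin of the cleavage furrow, from 353 and 371 CPM in control to 256 and 239 CPM with NAC (-0.55 ± 0.10). S phase genes rose in 7 of 43 and fell in 1, and the count depended on single libraries: 13 rose without control replicate 1, 2 without control replicate 2 or NAC replicate 1, and 12 with library size scaling. The replication protein Rpa2 (0.62 ± 0.14) kept its call whichever library was left out, and the transcription factor E2f1 fell (-0.63 ± 0.13). p53 targets fell in 12 of 28 (42.9%) and rose in 2. DESeq2 called 8 of them lower and 1 higher. The lower members Ak1, Phlda3, Plk2, Plk3, Rrm2b and Tigar lost the call without at least 1 library, as did the higher member Eda2r. The cyclin-dependent kinase inhibitor Cdkn1a read 468 and 473 CPM in control and 223 and 255 CPM with NAC (-0.98 ± 0.09) and 1032 and 1084 CPM with PQ, and Ccng1 279.6 and 322 CPM in control and 229 and 195 CPM with NAC (-0.504 ± 0.10) and 757 and 750.0 CPM. Mdm2 (-0.45 ± 0.10) and the polymerase Polk (-0.61 ± 0.11) fell too, and the PQ libraries of all 4 lay above control. Myc read 89.9 and 78.8 CPM in control and 136 and 139.7 CPM with NAC (0.71 ± 0.10). Ribosome biogenesis and Myc network genes, Myc among them, rose in 4 of 45 (8.89%), near the 8.65% of all tested genes. DESeq2 called 2 of them higher, and Mxd4, Mycl and Nat10 lost the call without at least 1 library. Called shares in the Bcl2 family, 11.8% higher and 11.8% lower, were not far from the 8.65% and 9.26% of all genes. In the Bcl2 family 2 of 17 rose and 2 fell: the pro-apoptotic Bmf read 4.55 and 4.99 CPM in control and 11.3 and 15.7 CPM with NAC (1.499 ± 0.21), Bid had an edgeR adjusted p of 0.046 that became 0.15 without control replicate 1, 0.18 without NAC replicate 1 and 0.12 without NAC replicate 2, and the fallers Bnip3 and Bnip3l are hypoxia genes.

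Imprinted genes, which are expressed from the copy of 1 parent, rose in 7 of 23 members (30.4%) and fell in 0, with a median of 0.08. Peg10, a retrotransposon-derived gene, read 124 and 144 CPM in control and 455 and 369 CPM with NAC (1.62 ± 0.11, edgeR adjusted p = 4.1e-08) and 77.9 and 89.3 CPM with PQ. Mest read 739 and 659.9 CPM in control and 1204 and 1056 CPM with NAC (0.69 ± 0.09) and 331 and 319.6 CPM with PQ, and 23.1% of its exonic bases overlap an opposite gene. In both genes PQ lay below and NAC above control. Impact, an inhibitor of the amino acid sensing kinase GCN2 (36.3 and 38.8 CPM in control and 62.1 and 60.01 CPM with NAC, 0.70 ± 0.11), and Ppp1r9a, neurabin (0.75 ± 0.10), rose as well. The other 3 called were Nnat, Peg3 and Cd81, and the list had 5 to 8 higher with single libraries left out. Chromatin enzymes were called at 4 of 46 higher and 2 lower, below the shares of all genes in the lower direction, and the methyltransferase Setd7 held (0.42 ± 0.09), with 2 higher without NAC replicate 1. Of long noncoding RNAs 26 of 473 tested rose and 15 fell, against 1072 and 1162 of 12190 protein-coding genes.

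Of 9 metabolic lists outside glycolysis 6 had more members lower than higher. Over all tested genes 9.26% were lower and 8.65% higher. Among the 6, the sterol synthesis list (8% lower) and the respiratory chain list (6.52% lower) lay below the share of all genes. Fatty acid synthesis and lipid storage had 9 of 38 lower (23.7%) and 2 higher. The desaturase Scd1 read 1152 and 975 CPM in control and 649 and 650.2 CPM with NAC (-0.71 ± 0.10), the arachidonate-preferring acyl-CoA synthetase Acsl4 316 and 366 CPM in control and 219 and 186 CPM with NAC (-0.75 ± 0.11), and Acsl1 and Fads3 fell by 1.005 ± 0.20 and 0.92 ± 0.15. Gpam, which starts glycerolipid synthesis, rose (0.61 ± 0.11). Sterol synthesis genes were called in 2 of 25, Fdps and Pmvk, both lower, and the count ran from 0 to 6 with single libraries left out. Lipid efflux and lipoprotein genes had 4 of 22 higher and 3 lower. Among them the cholesterol exporter Abca1 rose (29.5 and 26.1 CPM in control and 44.9 and 45.2 CPM with NAC, 0.69 ± 0.12) and the reelin and lipoprotein receptor Lrp8 fell (-0.49 ± 0.10). Fatty acid oxidation had 2 of 30 higher and 1 lower, with 1 to 2 and 0 to 2 across left-out libraries.

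Of 31 tricarboxylic acid cycle genes 7 fell and 3 rose. The mitochondrial isocitrate dehydrogenase Idh2, a source of NADPH, read 311 and 310.4 CPM in control and 198 and 190.3 CPM with NAC (-0.68 ± 0.09), the malic enzyme Me2 109.8 and 99.5 CPM in control and 59.5 and 57.2 CPM with NAC (-0.84 ± 0.10), and the citrate carrier Slc25a1 fell by 0.65 ± 0.10. Without either NAC replicate 4 were lower, and the number higher was 0 without NAC replicate 1 and 1 without control replicate 1. In nuclear respiratory chain genes 3 of 46 were called lower and 0 higher, while 41 of the 46 estimates lay below 0, with a median of -0.14. Sdhb (129 and 124 CPM in control and 91.7 and 93.97 CPM with NAC, -0.44 ± 0.09) and Uqcrq (-0.71 ± 0.11) fell, and without control replicate 1 the count was 9. Nitrogen and polyamine enzymes had 7 of 24 lower and 4 higher. Beside Odc1, inducible nitric oxide synthase Nos2 read 36.9 and 29.5 CPM in control and 10.5 and 16.2 CPM with NAC (-1.32 ± 0.18), while Sat1, which acetylates polyamines for export, rose (75.6 and 84.4 CPM in control and 120.5 and 128 CPM with NAC, 0.64 ± 0.10), as did the creatine synthesis gene Gatm (0.60 ± 0.10). The number lower was 4 without control replicate 1 and 3 without NAC replicate 1, and the number higher 2 without control replicate 2. Nucleotide synthesis had 6 of 35 lower and 3 higher, with the purine salvage enzyme Hprt at 89.9 and 95.1 CPM in control and 57.1 and 43.1 CPM with NAC (-0.88 ± 0.12) beside Adssl1, and the AMP deaminase Ampd3 higher (0.72 ± 0.11). NAD genes had 3 of 21 higher, the ADP-ribosyltransferases Parp14, Parp8 (0.67 ± 0.13) and Parp9 (0.63 ± 0.12), and 2 lower, the rate-limiting Nampt (266 and 282 CPM in control and 176 and 184 CPM with NAC, -0.61 ± 0.10) and Nt5e with an edgeR adjusted p of 0.011 that became 0.051 without control replicate 1 and 0.084 without NAC replicate 1. Without control replicate 1 the NAD list had 5 higher.

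Among organelle and protein quality genes, autophagy genes rose more often than all genes, and few proteasome and ribosome genes were called. Of 34 autophagy genes 9 rose (26.5%) and 2 fell, and 4 rose without NAC replicate 2. Pink1, the kinase that marks damaged mitochondria, read 40.9 and 35.5 CPM in control and 81.6 and 80.01 CPM with NAC (1.08 ± 0.11), Map1lc3b, whose product coats autophagosomes, 57.2 and 53.1 CPM in control and 85.00 and 81.00 CPM with NAC (0.59 ± 0.10), and Ulk2 rose by 0.39 ± 0.09. The fallers, Bnip3 and Bnip3l, are mitophagy receptors induced in hypoxia. Lysosomal genes rose in 5 of 40, with Ctsc, cathepsin C, at 0.56 ± 0.11, and the count was 3, 1 and 2 without PQ replicate 2, NAC replicate 1 and NAC replicate 2 and 9 with library size scaling. Proteasome genes were called at 1 of 36 higher and 2 lower, with 0 to 1 in either direction across left-out libraries. Cytosolic ribosomal proteins had 4 of 55 called lower and 0 higher, and the count was 2, 1, 0 and 0 without control replicates 1 and 2 and NAC replicates 1 and 2, and 2 with library size scaling. Chaperones of the endoplasmic reticulum had 4 of 33 higher and 2 lower. The fallers were P4hb (1029 and 991 CPM in control and 721 and 754 CPM with NAC, -0.45 ± 0.09) and Herpud1 (-0.85 ± 0.15), and the number higher was 2 without control replicate 2 and 0 without NAC replicate 1. Heat shock proteins fell in 5 of 27, with the small chaperone Cryab (29.2 and 21.9 CPM in control and 11.03 and 9.704 CPM with NAC, -1.30 ± 0.17) and the mitochondrial Hspa9 (-0.92 ± 0.14, and -0.57 without control replicate 2), and the count was 3 without control replicate 2 or either NAC replicate.

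Calls were more frequent in abundant genes, and the changes of the called genes were smaller there. Changes of all tested genes were not compared by level. With the tested genes ordered by mean level in 4 bins of equal size, 12.9%, 14.99%, 20.1% and 23.6% were called from the lowest bin to the highest, with median absolute log2 fold changes of the called genes of 1.19, 0.63, 0.49 and 0.45. The bins reached up to 10.3, 32.1, 79.0 and 9629 CPM. Of the 2294 calls 498 were members of any of the 56 lists, which hold 1544 tested genes, and 1796 were in none.

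NAC and PQ libraries were set against each other for the genes with the largest changes, since both were sampled at the same time. PQ against control and NAC against control share the control libraries, so the levels of PQ stand beside those of NAC as values only. The 40 genes were chosen for extreme NAC values against control, and NAC against PQ uses the same NAC libraries. That choice favours a difference from PQ, so the values below are descriptions. NAC exceeded PQ by 2.16 ± 0.15 (SE) on the log2 scale in Rasl11a, 2.22 ± 0.18 in Cd14 and 3.03 ± 0.33 in Eln, with edgeR adjusted p up to 2.1e-06. NAC lay below PQ by 3.07 ± 0.19 in Adssl1, 2.32 ± 0.17 in Ahnak, 2.25 ± 0.17 in Tinagl1 and 1.68 ± 0.10 in Map1b, with edgeR adjusted p up to 4.4e-08. In all 7 genes both NAC libraries lay on the same side of both PQ libraries, which the choice of genes favours. The difference did not pass in Tlr2 (0.23 ± 0.20, edgeR adjusted p = 0.42), Col9a3 (0.63 ± 0.24, 0.058), Slc16a14 (-0.503 ± 0.39, 0.35) and Otub2 (-0.57 ± 0.26, 0.11) of the 40 genes.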

How the data were processed

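RNA of 6 libraries of cultured mouse neural progenitor cells (control, PQ and NAC, 2 each) was sequenced on the BGISEQ-500, per the labels' protocols, which name both rRNA depletion and oligo dT selection. Named in the submitters' processing notes, with no role given, are RSEM, Bowtie2 2.2.5, HISAT2 2.0.4 and the mm10 genome. The deposited tables give 1 expected count, 1 length and 1 FPKM value per gene, per the file headers. Expected counts are estimates that divide reads between like genes, and 20.9% to 21.4% of the deposited values are not whole. Whether counting used the strand is not given in the sources used here. Genes missing from a table were set to 0, and Entrez identifiers were named from the RefSeq table of GRCm38.p6 (17199 of 17254). The 55 without a name held 0.072% to 0.079% of a library.

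Expected counts were rounded and tested in edgeR 4.0.16 (R 4.3.3) with its quasi-likelihood method, in which all 6 libraries were fitted by group means, with TMM scaling, 3 residual degrees of freedom and filterByExpr (minimum count 10, minimum total 15). PQ libraries enter that fit through the filter, the scaling and the spread, and their group mean has no weight in the comparison of NAC with control. Benjamini-Hochberg adjustment ran over all 12813 genes, and 0.05 was the threshold. Levels are CPM with TMM scaling, and summed levels of marker lists are CPM by library size alone. Each SE was derived from the F statistic (size of the log2 change over the root of F). The test was checked on simulated counts.

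Genes named were the 20 largest rises and 20 largest falls with no overlap of groups, at least 5 CPM in the higher group and a gene name other than a provisional locus name, outside the hypoxia, ATF4 and astrocyte lists, then the 10 largest gains and 10 largest losses in CPM, up to 4 members of each of 56 lists with the smallest p, and called members where 5 or fewer moved in a direction. Further called members are named as examples chosen after their values were seen, and 3 genes are not reported here. The members and lists were chosen with earlier results of these data known, so their counts are descriptions. Alternatives were library size and DESeq2-type scaling in edgeR, other filters, a robust fit, the 4 libraries alone, DESeq2 1.42.0, limma 3.58.1 on log2 of the deposited FPKM plus 0.1 or 1, and leaving out each library. Figures used matplotlib 3.10.9.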

Additional observations from a re-analysis of the deposited data

How the results depend on the processing

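The threshold count of 2294 genes ran from 1338 to 2157 when 1 library was left out, with 658 to 1048 higher and 680 to 1109 lower, and the 449 changed at least 2-fold ran from 344 to 442. The lowest of these counts came without NAC replicate 1. Other settings gave 1619 (DESeq2), 1906 and 1930 (limma on log2 of FPKM plus 1 and plus 0.1), 2087 (control and NAC libraries alone), 2290, 2296, 2373, 2378 and 2633 genes. With limma on log2(FPKM + 1), which shrinks the change of low genes by its construction, 191 genes changed at least 2-fold. Of the called genes among the 322 named 0 changed direction under a setting that tested them, and 14 of the 322 were not tested at a minimum count of 30 and 2 with the control and NAC libraries alone. Calls lost among them were 84 without NAC replicate 1, 58 without NAC replicate 2, 45 and 59 without control replicates 1 and 2, 53 with DESeq2, and 46 and 45 with limma on FPKM plus 1 and plus 0.1. The cause of each loss was not tested, and each left-out library also leaves fewer samples. No paired analysis was run. By title number the libraries run in the order control, PQ, NAC and then again in that order. No number is shared between groups, and the labels do not say what the numbers stand for. Whether the libraries came from separate rounds is therefore not known, and a block for such rounds was not fitted. In the lowest bin of level the median change of called genes was 1.19 on the log2 scale against 0.45 in the highest, and what size of change this depth could detect was not tested.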
